A study of Mus musculus with 9 samples.

Results

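The interleukin-6 (IL-6) family and its signaling were described in the injured mouse iris through 10 genes, chosen by gene symbol from the 18349 genes listed for every library. They comprised 4 ligands (Il6, Lif, Osm, Il11), 4 receptor chains (Il6ra, Il6st, Lifr, Osmr), the transcription factor gene Stat3 and the feedback inhibitor gene Socs3. All 10 were listed and all 10 passed the filter on low counts, which kept 15010 genes. RNA came from irises of 3 groups with 3 libraries each, and each library pooled 3 irises of 1 genotype. Sham VEGFR3 fl/fl mice, which carried floxed VEGFR3 alleles without Cre, received PBS. Injured VEGFR3 fl/fl mice received a corneal alkali injury (CAI), in which sodium hydroxide (0.5 μL, 1 M) on filter paper touched the cornea of 6-week-old mice for 60 seconds. Injured VEGFR3 iLECko mice received the same injury and carried both the floxed alleles and a tamoxifen-inducible Cre driven by Prox1, a gene of lymphatic endothelial cells that other cells can also express. Tamoxifen at 80 mg/kg was given from day 13 to day 17 to the knockout mice and to littermates with floxed alleles only. Dissection of the irises followed at 10 weeks of age, 28 days after injury. The injured groups are called injured control (VEGFR3 fl/fl) and knockout-labelled (VEGFR3 iLECko) from here on.

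Cytokines of the IL-6 family share the signal-transducing receptor chain gp130, which is encoded by Il6st. IL-6 and IL-11 first bind their own non-signaling receptors, whereas LIF and oncostatin M (OSM) pair gp130 with LIFR or OSMR. The assembled receptors activate Janus kinases (JAKs), which phosphorylate STAT3, and STAT3 induces SOCS3, an inhibitor that binds gp130 and its kinases. In the eye, IL-6 is known as a cytokine of intraocular inflammation and LIF as a factor released after tissue injury.

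The 10 genes lie on 6 mouse chromosomes, with Lif and Osm next to each other on chromosome 11 (build GRCm38.p6, the same assembly as mm10). Osm spans chr11:4236785-4241026 and Lif chr11:4257568-4272514. Il6 lies at chr5:30013114-30019975 and Il11 at chr7:4772373-4782907. Il6ra lies at chr3:89869324-89913196 and Il6st at chr13:112464070-112506860. Lifr at chr15:7090610-7197489 and Osmr at chr15:6813568-6874968 share a chromosome. Socs3 at chr11:117966079-117970336 and Stat3 at chr11:100886806-100939594 lie on the chromosome of Lif and Osm.

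The 250 bases before the transcription start are printed for Il6, Lif and Il11, because these ligands had higher counts in every knockout-labelled library than in every injured control library and have a RefSeq promoter entry (GRCm38.p6). They are written 5′ to 3′ on the strand of the gene, from chr5:30012864-30013113 (plus strand) for Il6, chr11:4257318-4257567 (plus strand) for Lif and chr7:4778142-4778391 (minus strand) for Il11. Capitals mark matches to 5 short motifs on either strand.
Il6: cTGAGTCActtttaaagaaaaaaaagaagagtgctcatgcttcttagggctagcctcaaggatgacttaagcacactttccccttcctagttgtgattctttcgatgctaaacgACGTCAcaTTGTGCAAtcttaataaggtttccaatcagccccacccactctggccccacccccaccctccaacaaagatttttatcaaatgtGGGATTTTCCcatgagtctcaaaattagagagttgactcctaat
Lif: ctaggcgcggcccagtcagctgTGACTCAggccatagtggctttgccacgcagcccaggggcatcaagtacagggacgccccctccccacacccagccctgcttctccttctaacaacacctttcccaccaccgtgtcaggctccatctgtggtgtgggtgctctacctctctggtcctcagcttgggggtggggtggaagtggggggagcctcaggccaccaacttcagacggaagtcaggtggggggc
Il11: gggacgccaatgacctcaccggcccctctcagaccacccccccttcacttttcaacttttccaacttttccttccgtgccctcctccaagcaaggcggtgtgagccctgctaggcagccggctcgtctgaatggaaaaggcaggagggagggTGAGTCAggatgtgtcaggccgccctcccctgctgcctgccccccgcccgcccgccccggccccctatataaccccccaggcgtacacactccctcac
The motifs were TGANTCA (bound by AP-1), an NF-kB motif (GGG, a pair of any bases, TT, any base, CC), TTCNNNGAA (STAT proteins), TTGNNCAA (C/EBP proteins) and TGACGT (part of the cAMP response element), and they were chosen after the values were seen. No printed matches overlapped. The Il6 sequence held TGAGTCA starting 249 bases before the start, ACGTCA at 136, TTGTGCAA at 128 and GGGATTTTCC at 44. Lif held TGACTCA at 228 bases before its start, and Il11 held TGAGTCA at 98. The printed Il11 sequence precedes an annotated start inside the gene's span. A further Il11 entry at the 5′ end of the gene (chr7:4782858-4783107) held none of the motifs. Over the same 250 bases before each annotated start, the AP-1 letters were found in 3 of the 11 windows of 9 members (27.3%) and in 6.75% of the 32851 windows of all genes. Each of the other motifs was found in 1 of the 11 windows (9.09%). They occurred in 4.11% (NF-kB), 7.02% (STAT), 5.65% (C/EBP) and 6.47% (TGACGT) of all windows. The STAT match lay in the Socs3 window, as TTCTTAGAA at 154 bases before the start. A match describes letters and is not a measured binding site.

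The Sham libraries held 16617199 to 16838899 counts each, the injured control libraries 17538971 to 18306363 and the knockout-labelled libraries 17561525 to 17591703. Flt4, which encodes VEGFR3, had 282, 237 and 265 counts in the Sham libraries, 277, 353 and 400 in the injured control libraries and 478, 370 and 476 in the knockout-labelled libraries. Its level was therefore not lower under the knockout label (log2 fold change 0.33, SE 0.15; edgeR's quasi-likelihood test, adjusted p = 0.200). Counts over the whole gene do not show whether a floxed exon was removed, and the genotype tags of replicates 2 and 3 of that group name another VEGFR number, so these libraries are called by their label only. Summed expression of 4 Y-linked genes was 51.1 to 167.1 CPM (counts scaled to library size) in the Sham libraries and 150.7 and 135.9 in injured control replicates 1 and 2. It was 0.804 in injured control replicate 3 and 0.736 to 1.11 in the knockout-labelled libraries. Y-linked expression therefore moved with the knockout label, and only injured control replicate 3 can be set beside the labelled libraries at a like Y-linked level.

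Injury was accompanied by higher RNA of all 4 ligands, of 3 receptor chains and of Socs3. These 8 of 10 members were called higher (adjusted p under 0.05 and over 1.5-fold), against 22.1% of all genes tested. None was called lower, against 17.5% of all genes. Every injured control library lay above every Sham library for 9 members, against 33.9% of all genes, and the reverse held for 0 members, against 32.4%. The median log2 fold change was 2.36 over the members and 0.01 over all genes. When libraries were scaled by total counts alone, the median of all genes was -0.16, the calls over all genes were 18.5% higher and 23.5% lower, and 7 members remained called. In bulk tissue, a change in the number of cells of a type and a change in RNA per cell cannot be told apart.

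**Figure D1:**
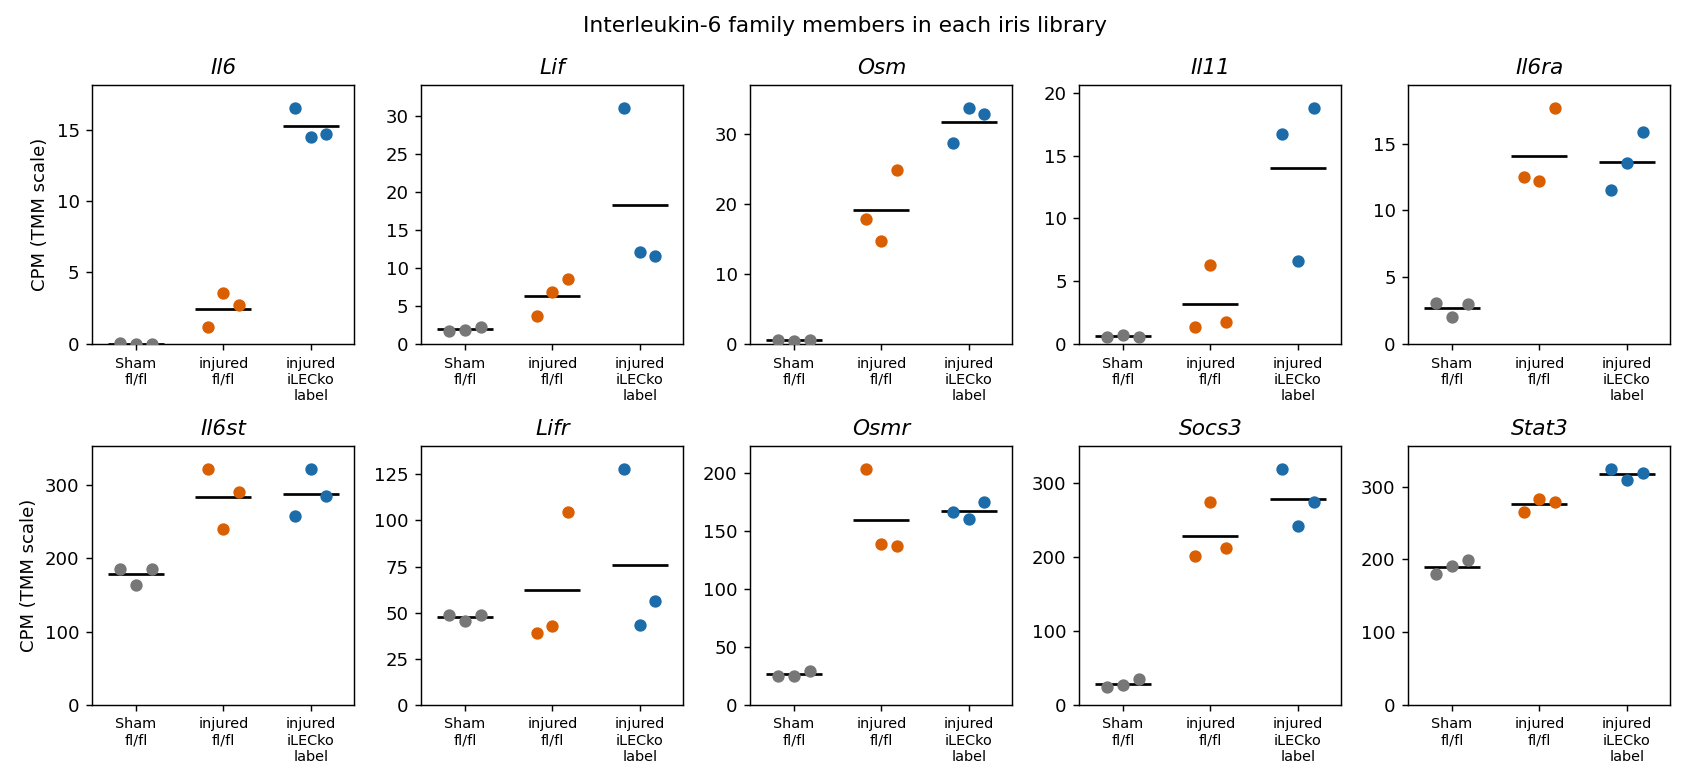
Expression of the 10 members in each library, in CPM on the TMM scale, with 1 panel per gene and a linear axis starting at 0. Points are libraries (3 per group) and bars are group means. For the 4 ligands and Stat3 the 3 groups form steps without overlap, whereas the injured groups overlap for the receptor chains and Socs3.

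Il6 was close to undetected in the uninjured iris. It had 1, 0 and 0 counts in the Sham libraries, 19, 61 and 47 in the injured control libraries and 282, 256 and 255 in the knockout-labelled libraries. The groups did not overlap, and the libraries under the knockout label were close to each other (15.2 ± 1.09 CPM, SD, n = 3). A count of 0 allows up to 3 counts, or 0.166 to 0.170 CPM in a Sham library, by counting error alone. Against 3 counts per Sham library, the Il6 mean was at least 14.7-fold higher after injury (2.47 ± 1.22 CPM, SD, n = 3; adjusted p = 5.38e-05). The bound was 6.9-fold for the lowest injured control library and 11.45-fold without injured control replicate 2.

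Osm, a product of neutrophils and macrophages, showed the largest fold change among the members with counts in every Sham library. Its counts were 10, 8 and 10 in the Sham libraries, 294, 250 and 432 in injured control irises and 491, 593 and 571 under the knockout label. All injured libraries stood far above all Sham libraries. The mean rose from 0.523 ± 0.0617 to 19.1 ± 5.20 CPM (SD, n = 3 each), which was 36.0-fold (log2 fold change 5.17, SE 0.25, adjusted p = 4.02e-07).

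Lif, a cytokine released by stressed tissue, had 31, 33 and 40 counts in the Sham libraries, 60, 116 and 150 after injury and 531, 215 and 202 under the knockout label. Within the labelled group, replicate 1 was far above the others. After injury Lif rose by a log2 fold change of 1.71 (SE 0.46, adjusted p = 0.0102). Il11, a cytokine of stromal and fibrotic responses, had 10, 13 and 10 counts in the Sham libraries, 22, 108 and 31 after injury and 287, 117 and 326 under the knockout label. Injured control replicate 2 was the high library of its group and lay just under the lowest labelled library. The log2 fold change of Il11 with injury was 2.34 (SE 0.68, adjusted p = 0.0143). Without that replicate it was 1.33 (adjusted p = 0.0541), so that the call of Il11 rested on it.

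Among the receptor chains, the cytokine-specific chains for OSM and IL-6 differed most. Osmr, the signaling partner of gp130 for OSM, had 454, 432 and 510 counts in the Sham libraries, 3348, 2369 and 2392 after injury and 2853, 2830 and 3042 under the knockout label. The Osmr level rose 6.12-fold with injury (26.1 ± 2.31 to 159.7 ± 37.6 CPM, SD, n = 3 each; adjusted p = 1.42e-06). Il6ra, the IL-6 binding chain, had 55, 36 and 53 counts, then 206, 208 and 307, and 197, 239 and 276 in the same order of groups. Sham libraries lay below all injured libraries, and the 2 injured groups overlapped. Its log2 fold change with injury was 2.39 (SE 0.22, adjusted p = 2.09e-05).

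Il6st, the shared gp130 chain, was abundant in every library and changed less. It had 3353, 2908 and 3306 counts in the Sham libraries, 5301, 4091 and 5054 after injury and 4418, 5683 and 4958 under the knockout label. The rise was 1.59-fold (log2 fold change 0.67, SE 0.12, adjusted p = 0.00139). This lay near the 1.5-fold threshold and fell under it with total-count scaling (log2 fold change 0.49) or without injured control replicate 1 (0.57).

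Lifr, the LIF receptor chain, was the member whose groups overlapped with injury. Its counts were 883, 801 and 865 in the Sham libraries, 645, 729 and 1824 after injury and 2188, 766 and 976 under the knockout label. Both injured groups had a single high library, injured control replicate 3 and the labelled replicate 1. The log2 fold change with injury was 0.39 (SE 0.45, adjusted p = 0.485), and without injured control replicate 3 it was -0.22.

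Socs3, which is induced by STAT3 and restrains gp130 signaling, had 427, 464 and 626 counts in the Sham libraries, 3303, 4672 and 3690 after injury and 5448, 4259 and 4764 under the knockout label. The Sham and injured libraries were far apart, while the 2 injured groups overlapped. The rise with injury was 8.06-fold (28.4 ± 6.10 to 228.6 ± 39.3 CPM, SD, n = 3 each; adjusted p = 1.80e-06). Stat3 itself had 3255, 3370 and 3545 counts, then 4372, 4839 and 4860, and 5546, 5470 and 5550 under the knockout label. Its 3 groups were separate and tight on the CPM scale. The injury difference was 1.45-fold (log2 fold change 0.54, SE 0.07, adjusted p = 1.38e-04), under the fold threshold.

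**Figure D2:**
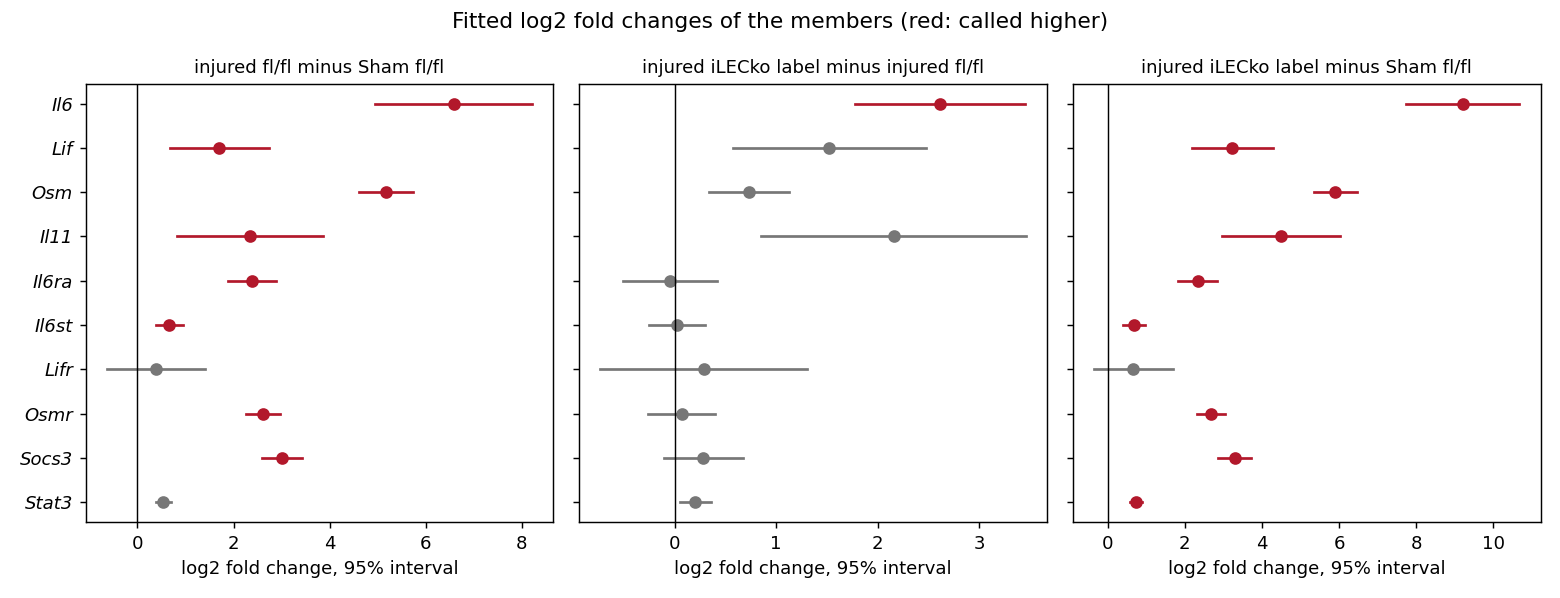
Fitted log2 fold changes of the 10 members with 95% intervals in 3 comparisons (9 libraries in 1 fit). Red points were called higher (adjusted p under 0.05, over 1.5-fold) and grey points were not. In the middle panel the 4 ligands lie right of 0 with intervals that leave it out, whereas the 4 receptor chains have intervals that include 0. Fitted values of Il6 against Sham depend on a prior count and are no bound.

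The comparison of the knockout-labelled libraries with injured control was designed around VEGFR3 deletion, which the Flt4 counts above do not show, and it is given here by label. The deletion was aimed at lymphatic endothelial cells, whereas Flt4 was counted in bulk iris RNA. From whole-mount staining, the paper reported blocked iris lymphangiogenesis in injured VEGFR3 iLECko mice. The ligands stood higher under the knockout label, and the receptor chains overlapped. Il6 was called higher, 1 of 10 members against 0.573% of all genes, and 0 members were called lower, against 0.466%. All labelled libraries lay above all injured control libraries for 5 members (Il6, Lif, Osm, Il11 and Stat3), against 12.4% of all genes. The reverse held for 0 members, against 14.3%. The median log2 fold change was 0.28 over the members and -0.01 over all genes.

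Il6 was 6.12-fold higher under the knockout label, at 15.2 ± 1.09 against 2.47 ± 1.22 CPM (SD, n = 3 each). The log2 fold change was 2.61 (SE 0.37, 95% interval 1.78 to 3.45, adjusted p = 0.0263). Leaving out single libraries kept the log2 fold change between 2.28 and 2.97. The adjusted p was 0.0579 without Sham replicate 1, 0.0596 without Sham replicate 3, and 0.0607, 0.111 and 0.0517 without labelled replicates 1, 2 and 3. The call was also lost with the 6 compared libraries alone (0.0968), a replicate block (0.0627) or a term for Y-linked expression (0.259, at a log2 fold change of 2.49). Injured control replicate 3, the Y-low library, had 2.70 CPM against 14.5 to 16.5 CPM in the labelled libraries, which was 5.64-fold between it and their mean.

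The other ligands differed in the same direction without passing the adjusted threshold. Osm stood at 31.7 ± 2.65 CPM (SD, n = 3) under the knockout label, a log2 fold change of 0.73 (95% interval 0.34 to 1.12, adjusted p = 0.0652). In the Y-low injured control library Osm was 24.8 CPM, against 28.7 to 33.6 CPM in the labelled libraries. Il11 stood at 14.1 ± 6.51 against 3.15 ± 2.76 CPM (SD, n = 3 each), a log2 fold change of 2.16 (95% interval 0.85 to 3.46, adjusted p = 0.0803). Its Y-low value was 1.78 CPM, against 6.63 to 18.8 CPM. Lif stood at 18 ± 11 against 6.35 ± 2.52 CPM (SD, n = 3 each), a log2 fold change of 1.52 (95% interval 0.57 to 2.48, adjusted p = 0.0858). Its Y-low value was 8.61 CPM, against 11.6 to 31.0 CPM, and without labelled replicate 1 the log2 fold change was 0.90.

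DESeq2's Wald test called all 4 ligands higher, at adjusted p = 4.45e-09 for Il6, 0.00930 for Lif, 0.0128 for Osm and 0.00515 for Il11. The same test called 2.33% of all genes higher and 1.87% lower. In edgeR's test Il11 was called without injured control replicate 2, where its log2 fold change was 3.16 (adjusted p = 0.0338). Osm was called without replicate 3 of that group (adjusted p = 0.0262). In each case the library left out had the highest value of that gene in its group, and replicate 3 was the only Y-low injured control library. With the Y-linked term in edgeR's test neither was called, at a log2 fold change of 0.36 for Osm (adjusted p = 0.552) and 2.95 for Il11 (adjusted p = 0.391).

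Receptor levels in the 2 injured groups were within the spread between libraries. The log2 fold change under the knockout label was -0.05 for Il6ra (95% interval -0.51 to 0.41), 0.02 for Il6st (-0.26 to 0.30), 0.07 for Osmr (-0.26 to 0.40) and 0.28 for Lifr (-0.73 to 1.30). Adjusted p-values of the 4 chains ran from 0.723 to 0.926. The intervals leave room for differences of about the size seen for Osm in the case of Lifr, and they are narrowest for Il6st and Osmr. Lifr was at 0.89 without injured control replicate 3 and at -0.32 without labelled replicate 1. Socs3 had a log2 fold change of 0.28 (95% interval -0.11 to 0.67, adjusted p = 0.330). For Stat3 it was 0.20 (95% interval 0.05 to 0.36, adjusted p = 0.126), with 310 to 324 CPM in the labelled libraries against 279.1 CPM in the Y-low injured control library.

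Set against Sham, the knockout-labelled libraries had 9 of 10 members called higher, against 19.7% of all genes, and 0 lower, against 15.0%. No overlap with higher values was seen for 9 members, against 33.3% of all genes, and with lower values for 0, against 33.2%. This comparison shares its Sham libraries with the injury comparison. The Il6 mean was at least 90.5-fold higher than 3 counts per Sham library, and the lowest labelled library 86.2-fold. The log2 fold change was 5.90 for Osm, 4.49 for Il11 and 3.23 for Lif (2.61 without labelled replicate 1). It was 3.29 for Socs3, 2.68 for Osmr, 2.34 for Il6ra, 0.74 for Stat3 (adjusted p = 2.62e-05) and 0.69 for Il6st (adjusted p = 0.00136). Il6st lost its call with total-count scaling (log2 fold change 0.58) or the Y-linked term (adjusted p = 0.0536). Lifr was again the exception, at 0.67 (adjusted p = 0.239), and at 0.07 without labelled replicate 1.

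Levels of different genes were compared as approximate TPM, which divides by transcript length. In the Sham iris the order was Stat3 (90.1), Il6st (59.1), Socs3 (31.8), Lifr (14.1), Osmr (13.6), Lif (1.38), Il11 (0.903), Il6ra (0.896), Osm (0.661) and Il6 (0.0234). Library ranges overlapped between Lifr and Osmr, between Il11 and Il6ra, and between Il6ra and Osm. After injury Socs3 led (210.1 TPM), followed by Stat3 (106.7), Il6st (75.9) and Osmr (67.1), the latter pair overlapping. Osm (19.7) and Lifr (15.3) also overlapped, as did each neighbouring pair among Il11 (3.85), Il6ra (3.83), Lif (3.75) and Il6 (2.52). Under the knockout label Il6ra was last (4.10 TPM), and Il6 stood at 16.8 TPM, within the library ranges of Il11 (18.5) and Lif (11.6). The transcripts of gp130 and STAT3 were thus present in all 3 groups at levels above every ligand, while the IL-6 binding chain was among the scarcest on this scale. Its place depends on the length used, the longest annotated transcript (8639 bases for Il6ra, 2343 for Il6). In CPM, Il6ra in injured control irises (14.1) stood above Il6 (2.47), Il11 (3.15) and Lif (6.35) and below Osm (19.1).

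**Figure D3:**
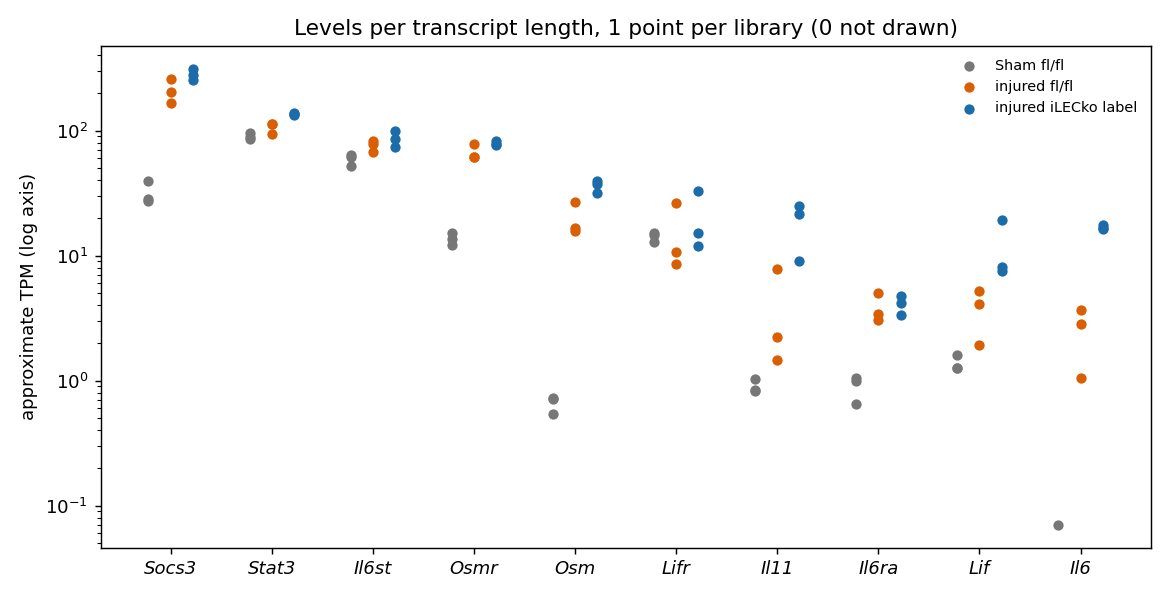
Approximate TPM of the 10 members on a log axis, with 1 point per library (3 per group) and libraries with 0 counts left out. Sham points lie below all injured points for the 4 ligands, Il6ra, Il6st, Osmr and Socs3, and Lifr overlaps between groups. For Stat3, unlike in CPM, Sham replicate 3 (95.2) lies above injured control replicate 1 (93.3).

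The wider pathway was covered by 7 lists holding 90 genes, of which 84 were tested. With injury 47 of the 84 (56.0%) were called higher and 9 (10.7%) lower, against 22.1% and 17.5% of all genes, with a median log2 fold change of 0.94. Under the knockout label 0 were called higher and 1 lower (1.19%), against 0.573% and 0.466% of all genes, with a median of 0.09. Unadjusted p-values were under 0.05 for 1 to 6 genes in 6 of the lists and for 0 in the list of receptor shedding. Among all 15010 genes tested, 3674 had an unadjusted p under 0.05 in this comparison, so these list counts do not set the pathway apart. DESeq2's Wald test called 3 higher and 3 lower in that comparison, against 2.33% and 1.87% of all genes. Against Sham the labelled libraries had 45 higher (53.6%) and 7 lower (8.33%), against 19.7% and 15.0% of all genes.

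Of 6 other ligand genes of the family tested, 3 rose and 2 fell with injury, against 22.1% and 17.5% of all genes. Ebi3, a subunit of IL-27, rose (log2 fold change 2.56, adjusted p = 5.11e-06). Cntf, ciliary neurotrophic factor, fell from 1165, 1255 and 1189 counts to 428, 380 and 398 (log2 fold change -1.51, adjusted p = 1.07e-06). Ctf1, cardiotrophin-1, also fell (log2 fold change -0.82, adjusted p = 0.00996). Among 5 other receptor genes, Il27ra rose (log2 fold change 3.76), while 2 fell, including the CNTF receptor gene Cntfr (log2 fold change -1.49, adjusted p = 1.13e-04). Ligand and receptor of the CNTF branch thus stood lower after injury, unlike the 4 ligands above.

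JAK and STAT genes other than Stat3 rose in 4 of 10 cases and fell in none, against 22.1% and 17.5% of all genes. Stat4, a factor of lymphoid cells, had a log2 fold change of 3.36, Jak3 1.41, Tyk2 0.75 and Jak1, the main kinase of gp130, 0.70. The last pair fell under 1.5-fold with total-count scaling (0.58 and 0.52). Of 17 adapters and inhibitors, 6 rose and 3 fell, against the same shares, and the list median log2 fold change was -0.005. Ptpn6, a phosphatase of blood cells, rose by 2.64, the inhibitor gene Socs1 by 2.05 and the phosphatase gene Ptpn1 by 1.83 on the log2 scale. Cish, an inhibitor related to Socs3 and known as a STAT5 target, fell by 1.90 on the log2 scale (adjusted p = 3.94e-04). Of 5 genes of receptor shedding, 2 were called higher and 0 lower, against 22.1% and 17.5% of all genes. Adam17, the protease that releases soluble IL-6 receptor, rose (log2 fold change 1.09), as did Rhbdf1, a partner of that protease (0.76). Rhbdf1 fell under 1.5-fold with total-count scaling (0.58). For 2 of the 5, every injured control library lay below every Sham library, against 32.4% of all genes. The list summed to 1894 to 2125 CPM in the Sham and 1324 to 1799 in the injured control libraries.

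Ptpn6 was the pathway gene called lower under the knockout label, at 1542, 1581 and 2162 counts in injured control and 1111, 1207 and 1225 in the labelled libraries. The groups did not overlap (log2 fold change -0.61, SE 0.11, adjusted p = 0.0399). The call was lost without any single Sham library (adjusted p = 0.0622 to 0.0774), without any single labelled library (0.0805 to 0.145) and without injured control replicate 3 (log2 fold change -0.45). It was also lost with total-count scaling, the 6 compared libraries alone or a replicate block (adjusted p = 0.0649, 0.123 and 0.0719).

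Inducers of Il6 and regulators of its mRNA rose in 8 of 13 cases with injury, against 22.1% of all genes. Il1b went from 16, 13 and 17 counts to 538, 1852 and 1750, and was 2303, 2926 and 4146 under the knockout label. Its groups did not overlap in either step, and the second step had a log2 fold change of 1.16 (adjusted p = 0.122). Il1a and Tnf rose with injury by 5.36 and 3.11 on the log2 scale. Their values under the knockout label were within the spread (log2 fold changes -0.01 and -0.26, adjusted p = 0.974 and 0.746). Zc3h12a, whose product degrades Il6 mRNA, rose with injury by 2.87 on the log2 scale (adjusted p = 7.77e-07).

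Genes known as STAT3 targets rose in 23 of 28 cases and fell in 2, against 22.1% and 17.5% of all genes. The list median log2 fold change was 2.48. Many of these targets also respond to other factors. Il1rn, the IL-1 receptor antagonist, went from 4, 10 and 2 counts to 2495, 10266 and 8956. Saa3, an acute-phase gene, had at most 1 count per Sham library and was at least 79.1-fold higher with injury (at least 39.8-fold without injured control replicate 1). Hp, haptoglobin, rose by 5.83 and Timp1, a protease inhibitor, by 3.97 on the log2 scale. Under the knockout label no gene of the list was called. Cxcl1, a neutrophil attractant, had 286, 166 and 261 counts in injured control and 628, 579 and 1188 in the labelled libraries (log2 fold change 1.71, adjusted p = 0.0804). For Saa3, labelled replicate 3 alone was high (129, 100 and 2332 counts), and without it the log2 fold change was -1.01.

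**Figure D4:**
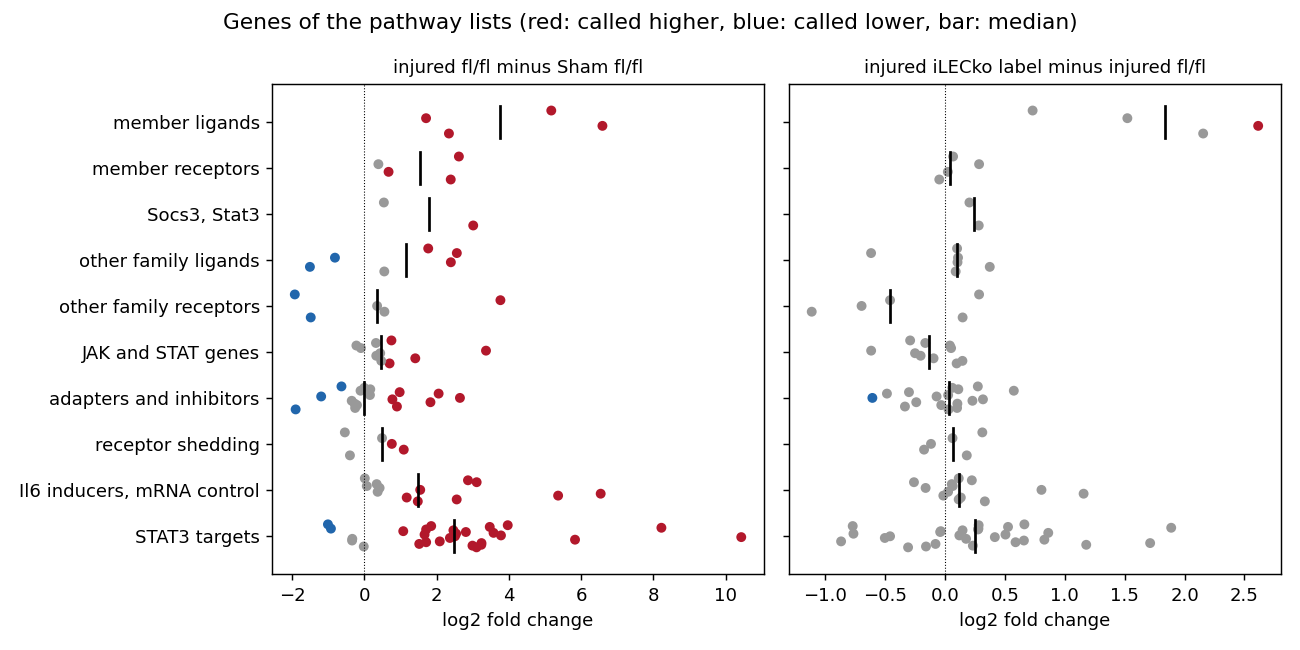
Log2 fold changes of single genes in the member groups and 7 pathway lists, with injury (left) and under the knockout label (right). Points are genes, coloured by call (red higher, blue lower, grey not called), and bars are list medians. The STAT3 target list has a median of 2.48 on the left, and on the right Il6 and Ptpn6 are the coloured points.

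Genes whose level followed Il6 closely over the 9 libraries included Cxcl2 (Pearson's r = 0.990), Ctif (0.990), Tnfsf10 (0.988) and Adamts4 (0.988), among 14221 genes with a mean of at least 1 CPM. The libraries share their groups, so these values describe a common pattern of 3 steps. Cxcl2, a neutrophil attractant, had 47, 232 and 178 against 439, 559 and 622 counts (log2 fold change 1.80, adjusted p = 0.0634).

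Markers of immune cells also differed between the Sham and injured groups. Under the knockout label their list medians lay in more than 1 direction, but only the macrophage list had genes called. The median log2 fold change there was -0.69 for macrophage genes, -0.59 for T cell genes and 1.18 for neutrophil genes. The summed level of 12 macrophage genes was 552 to 567 CPM in the Sham, 12890 to 21310 in the injured control and 8342 to 10260 CPM in the labelled libraries. All 12 macrophage genes rose with injury, and 6 of them were called lower under the knockout label, against 0.466% of all genes. That count was 0 with the 6 compared libraries alone or without labelled replicate 2. It was 1 with the replicate block, the Y-linked term, or without labelled replicate 1 or 3 or Sham replicate 3, and 2 without Sham replicate 1. The sum of 11 neutrophil genes was 4.65 to 6.59 CPM, then 191.5 to 656.9 and 473.4 to 1519 CPM. Only labelled replicate 3 lay above every injured control library in this sum. Of 10 neutrophil genes tested, 8 rose with injury, 0 were called under the knockout label, and Ly6g was at 0 in all Sham libraries. The 8 T cell genes summed to 4.79 to 5.21, 40.4 to 58.7 and 24.6 to 43.6 CPM. All rose with injury, and 0 were called under the knockout label. Fibroblast genes summed to 3825 to 4389, 15850 to 22700 and 16620 to 20900 CPM, with 6 of 8 rising with injury. Of all genes, 22.1% were called higher with injury. The part of these cell types in the member differences was not tested.

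The tissue label was checked against markers of the iris and its neighbours. Pigment cell genes summed to 27620 to 29560 CPM in the Sham, 3387 to 5818 in the injured control and 5074 to 7118 CPM in the labelled libraries, and 7 of 7 fell with injury. Iris muscle genes summed to 7171 to 9171, 1360 to 2791 and 2021 to 3077 CPM, and 4 of 7 fell. With injury, 17.5% of all genes were called lower. Blood endothelial genes summed to 536 to 573, 1398 to 1432 and 1244 to 1412 CPM, and lymphatic endothelial genes to 783 to 919, 609 to 856 and 778 to 864 CPM. Of 6 lymphatic genes, 2 were called higher and 1 lower with injury, against 22.1% and 17.5% of all genes. Under the knockout label 1 was called higher and 0 lower, against 0.573% and 0.466% of all genes. The latter call was lost with the 6 libraries alone, the block or the Y-linked term, and without Sham replicate 1 or 3, injured control replicate 1 or 2, or labelled replicate 1 or 2. The 2 higher calls with injury became 0 without injured control replicate 1. They became 1 with total-count scaling, with the replicate block and without any single Sham library. The lower call became 2 without injured control replicate 2. Corneal epithelial genes summed to 3.06 to 116.9 CPM, with the highest value in injured control replicate 1. Lens genes summed to 44.7 to 152.4 CPM and 2 ciliary body genes to 1.44 to 3.64 CPM over all libraries.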

How the data were processed

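Expression of the IL-6 family was measured by bulk RNA-Seq in 9 iris libraries. The authors sequenced single-end reads of 50 bases and, per the labels and their processing notes, used HISAT2 2.0.4, Bowtie2 2.2.5 and DESeq2 1.4.5 with build mm10. The program that estimated the counts and the annotation are not given in the sources used here. They deposited expected counts for genes named by symbol and NCBI identifier, without normalization. Between 9.83% and 10.3% of values per library were not whole. A combined table of the series was not used.

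In R 4.3.3, expected counts were rounded to integers. The filterByExpr function of edgeR 4.0.16 kept 15010 of 18349 genes, which were scaled by TMM (factors 0.90 to 1.09) and fitted in all 9 libraries with group as the only term. Groups were taken from the titles. The 3 comparisons between groups used edgeR's quasi-likelihood test, with p-values adjusted by Benjamini-Hochberg within each comparison across every gene tested. Genes were called at an adjusted p under 0.05 and more than 1.5-fold, as in the study's methods, whose filter on TPM was not applied here. Standard errors came from the F statistic. Levels are CPM on the TMM scale. Where no library of a group had more than 3 counts, a fold change is a bound against 3 counts per library. Approximate TPM used the longest GENCODE M21 transcript (96.7% of genes). Promoter windows came from RefSeq (GRCm38.p6).

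The members and lists were chosen with earlier results of these data known. Named genes were the 10 members, up to 4 called genes per pathway list and comparison with the largest changes and a mean of at least 1 CPM, the 5 genes most like Il6 in log2 CPM (prior count 2), and Flt4. Some genes that this rule names are not reported here. Beside the 7 pathway lists, 11 lists of cell type markers and 4 Y-linked genes were summed. Totals were 16617199 to 18306363 counts per library, and intervals of counts cover counting error only. Replicates differed beyond counting noise (chi-square divided by its degrees of freedom, 5.13 to 76.2). Nothing in the labels gives a sequencing batch. Alternatives covered the scaling, the filter, DESeq2 1.42.0, the libraries fitted, the fold threshold, a replicate block, a Y-linked covariate and leaving out each library. The procedure was tested on simulated data.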

Additional observations from a re-analysis of the deposited data

How the results depend on the processing

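The 8 members called higher with injury and the 9 called higher between the libraries labelled injured VEGFR3 iLECko and Sham kept counts of 7 to 9 and 8 to 9 under every alternative. The comparison under the knockout label was less stable. Its single member called higher (Il6) became 4 with DESeq2's Wald test and 0 with the 6 compared libraries alone, the replicate block or the Y-linked covariate, and 0 to 2 when 1 library was left out. The count was 0 without Sham replicate 1 or 3 or any labelled library, and 2 without injured VEGFR3 fl/fl replicate 2 or 3. Pathway genes called lower there (1) became 3 with DESeq2, 0 with total-count scaling, the 6 libraries or the block, and 0 to 2 on leaving out 1 library. Pathway genes called higher there (0) became 3 with DESeq2 and 1 with the block. All genes called higher and lower there numbered 86 and 70, but 349 and 281 with DESeq2, 11 and 13 with the block, 0 and 0 with the 6 libraries, and 0 and 2 with the Y-linked covariate. Pathway genes called lower with injury (9) became 15 with no fold threshold. Those called lower between the labelled libraries and Sham (7) became 4 with the Y-linked covariate and 4 to 7 on leaving out 1 library, with 4 without Sham replicate 3 or labelled replicate 3. The cause was not tested.

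Whether replicate numbers pair the samples is not known. The correlation of deviations was -0.387 to 0.131 over 9 same-numbered pairs and passed 0.1 in 1, and it was -0.243 to 0.321 over differently numbered pairs. With 3 libraries per group, such values cannot exclude a shared run. The study's methods mention more than 1 sequencing experiment, and no label says which libraries shared one. With the replicate block the adjusted p of Il6 under the knockout label was 0.0627, and with the 6 libraries alone 0.0968.

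Log2 fold changes of genes that were not called could turn sign. With the Y-linked covariate they were -0.067 for Lifr with injury and -0.43 between the labelled libraries and Sham, and under the knockout label -0.0089 for Il6st, -0.36 for Lifr, -0.076 for Cntfr, -0.11 for Jak2, 0.16 for Rhbdf1 and 0.59 for Tnf. With total-count scaling they were 0.013 for Il6ra and 0.044 for Il1a under the knockout label. On leaving out 1 library, Lifr with injury ranged from -0.22 to 0.63. Under the knockout label the ranges were -0.17 to 0.14 for Il6ra, -0.086 to 0.13 for Il6st, -0.32 to 0.89 for Lifr, -0.031 to 0.28 for Osmr, -0.052 to 0.37 for Ctf1, -0.035 to 0.29 for Cntfr, -0.15 to 0.25 for Cish, -0.24 to 0.036 for Rhbdf1, -0.12 to 0.15 for Il1a, -0.63 to 0.27 for Tnf, -1.01 to 2.88 for Saa3 and -0.086 to 1.16 for Hp. Of 1917 values of single genes under alternatives, 1840 kept direction and call, 35 lost a call, 12 gained one and 30 turned sign. DESeq2 gave no adjusted p for Saa3.

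Counts of 0 or 1 for Il6 in Sham limit its change to a bound, and 3 libraries per group of pooled irises give p-values that measure only the spread between these pools. The Y-linked level, the knockout label and any unlabelled batch cannot be fully told apart.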

Other observations

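Lifr was high in the same 2 libraries as a few other genes, which were looked up after its values were seen. The 5 most alike over the 9 libraries were Nell1 (r = 0.968), Sp7 (0.962), Cma2 (0.935), Klf16 (0.879) and Pgam2 (0.873). Sp7, which encodes a transcription factor of bone-forming cells, had 211 counts in injured VEGFR3 fl/fl replicate 3 and 187 in labelled replicate 1. In the other libraries it had 50, 42 and 38 (Sham), 30 and 42 (injured VEGFR3 fl/fl) and 52 and 47 counts (labelled injured VEGFR3 iLECko). Nell1, which encodes a secreted protein of bone formation, had 164 and 207 counts in the same 2 libraries, and 39 to 66 in the other 7. These genes were picked for their likeness to Lifr, so the shared pattern is a description of 2 libraries and was not tested.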
